A study of Caenorhabditis elegans with 18 samples.

Results

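The data describe 16 genes whose transcripts were more abundant after heat shock in wild-type Caenorhabditis elegans larvae, less abundant after the same heat shock in hsf-1(sy441) mutant larvae, and more abundant than in the mutant when an hsf-1::gfp transgene was added back. They were chosen from a table of 20389 genes, of which 20275 had a usable estimate in every library. The choice used CPM, the count of sequenced fragments of a gene divided by the library total and scaled to counts per 1e6. A gene had to reach a mean of 5 CPM in N2 larvae at 34 °C, at least 3 times its N2 mean at 20 °C, with every N2 library at 34 °C above every N2 library at 20 °C. Its mean in hsf-1(sy441) larvae at 34 °C had to be at most 0.5 of that in N2, and its mean in the transgene strain at 34 °C at least 1.5 times that in hsf-1(sy441). In all 26 genes met these limits. The rule left out 11 genes by name, 10 of which met them. Those 11 were hsp-70, hsp-16.41, hsp-16.2, hsp-110, hsp-90, dnj-13, unc-23, hsp-4, scp-1, R11A5.3 and ZC21.10, and hsp-90 was the gene that did not meet the limits. The 16 genes are nurf-1, R107.5, Y43F8B.2, ttll-12, sqst-1, nud-2, ikke-1, aip-1, srt-42, cnc-4, bath-34, Y38H6C.8, dct-10, Y71G12B.18, uggt-2 and mtl-1, and all 16 passed the filter on low counts over the 6 groups. RefSeq lists 15 of them as protein coding and dct-10 as a pseudogene.

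The series measured polyadenylated RNA of whole larvae in the second larval stage, in 18 libraries. The 6 groups of 3 libraries were hsf-1(sy441) larvae after 30 min at 34 °C and hsf-1(sy441) larvae at 20 °C, larvae of the transgene strain after 30 min at 34 °C and at 20 °C, and wild-type N2 larvae after 30 min at 34 °C and at 20 °C. The allele sy441 encodes an HSF-1 protein that lacks part of its activation domain. The transgene strain carries hsf-1(sy441) on chromosome I, the transgene rmSi1[hsf-1::gfp] on chromosome II and the mutation unc-119(ed9) on chromosome III. The promoter of the transgene is not given in the sources used here, and the table counts fragments of the mutated and the added hsf-1 copy together. Separate cultures are not named for the replicates, and p-values therefore cover no more than the spread among these libraries, which may be technical. In RNA of whole larvae, fewer cells of a type and less RNA per cell cannot be told apart.

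HSF-1 is the transcription factor of the heat shock response. In stressed cells it forms trimers, binds repeats of a short sequence in promoters and drives transcription of genes for molecular chaperones, which keep unfolding proteins from clumping. In the worm it is known for a role in thermotolerance, lifespan and larval development, and it also drives genes outside the chaperone families, among them genes for protein degradation, autophagy and the cytoskeleton.

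The depth was 16.1 to 34.7 M fragments per library. The level of hsf-1 itself (Y53C10A.12, chromosome I, 11953502 to 11961977 in ce10) averaged 98.0 ± 4.93 CPM in hsf-1(sy441), 108 ± 5.63 CPM in the transgene strain and 39.5 ± 2.17 CPM in N2 at 20 °C (SD, n = 3 each). These and all later CPM are scaled with TMM factors unless said otherwise. The gene unc-119, a neuronal trafficking gene mutated in the transgene strain, had 2.17 to 3.34 CPM in the 6 libraries of that strain, below all other libraries, of which the lowest had 11.9 CPM. Yolk genes, which mark adults, summed to 5.57 CPM or less except in replicate 3 of N2 at 34 °C, where they summed to 48.3 CPM. Replicate 3 of the transgene strain at 20 °C had 49.5 CPM of hsp-16.41, against 0.264 and 0.343 CPM in its fellow replicates. Where a share or heat ratio of a member printed in the text moves by over 1.5 times without 1 of these 2 libraries, both values are given.

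The most abundant gene of the set after heat shock was nurf-1 (F26H11.2, chromosome II, 14390325 to 14407829), which encodes the largest subunit of the NURF chromatin remodelling complex, the homolog of human BPTF. Its level at 34 °C was 1865, 1928 and 1384 CPM in hsf-1(sy441), 5364, 5169 and 4265 CPM in the transgene strain and 6967, 7366 and 5304 CPM in N2. At 20 °C all 9 libraries of the 3 strains lay between 191 and 230.3 CPM. The heated libraries of hsf-1(sy441) were all below those of the other strains, and those of the transgene strain and N2 overlapped. The ratio of the mean at 34 °C to that at 20 °C was 8.29 in hsf-1(sy441), 24.2 in the transgene strain and 30.3 in N2.

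R107.5 (chromosome III, 9051514 to 9053708) and Y43F8B.2 (chromosome V, 19503082 to 19533080, 1 of 4 genes in its locus) have no annotated function in the files. R107.5 had 543, 483 and 497 CPM in heated hsf-1(sy441) larvae, 2449, 2486 and 2549 CPM in the heated transgene strain and 3769.9, 2907 and 3119 CPM in heated N2. Against 20 °C, where it averaged 29.2, 27.6 and 30.9 CPM in the same order of strains, these were ratios of 17.4, 90.5 and 106. It kept the largest heat ratio of the set in hsf-1(sy441). Y43F8B.2 averaged 376 ± 7.93 CPM in heated hsf-1(sy441) larvae, 1364 ± 122 CPM in the heated transgene strain and 1583 ± 419 CPM in heated N2. Its 20 °C means were 44.5, 43.5 and 45.9 CPM.

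**Figure D1:**
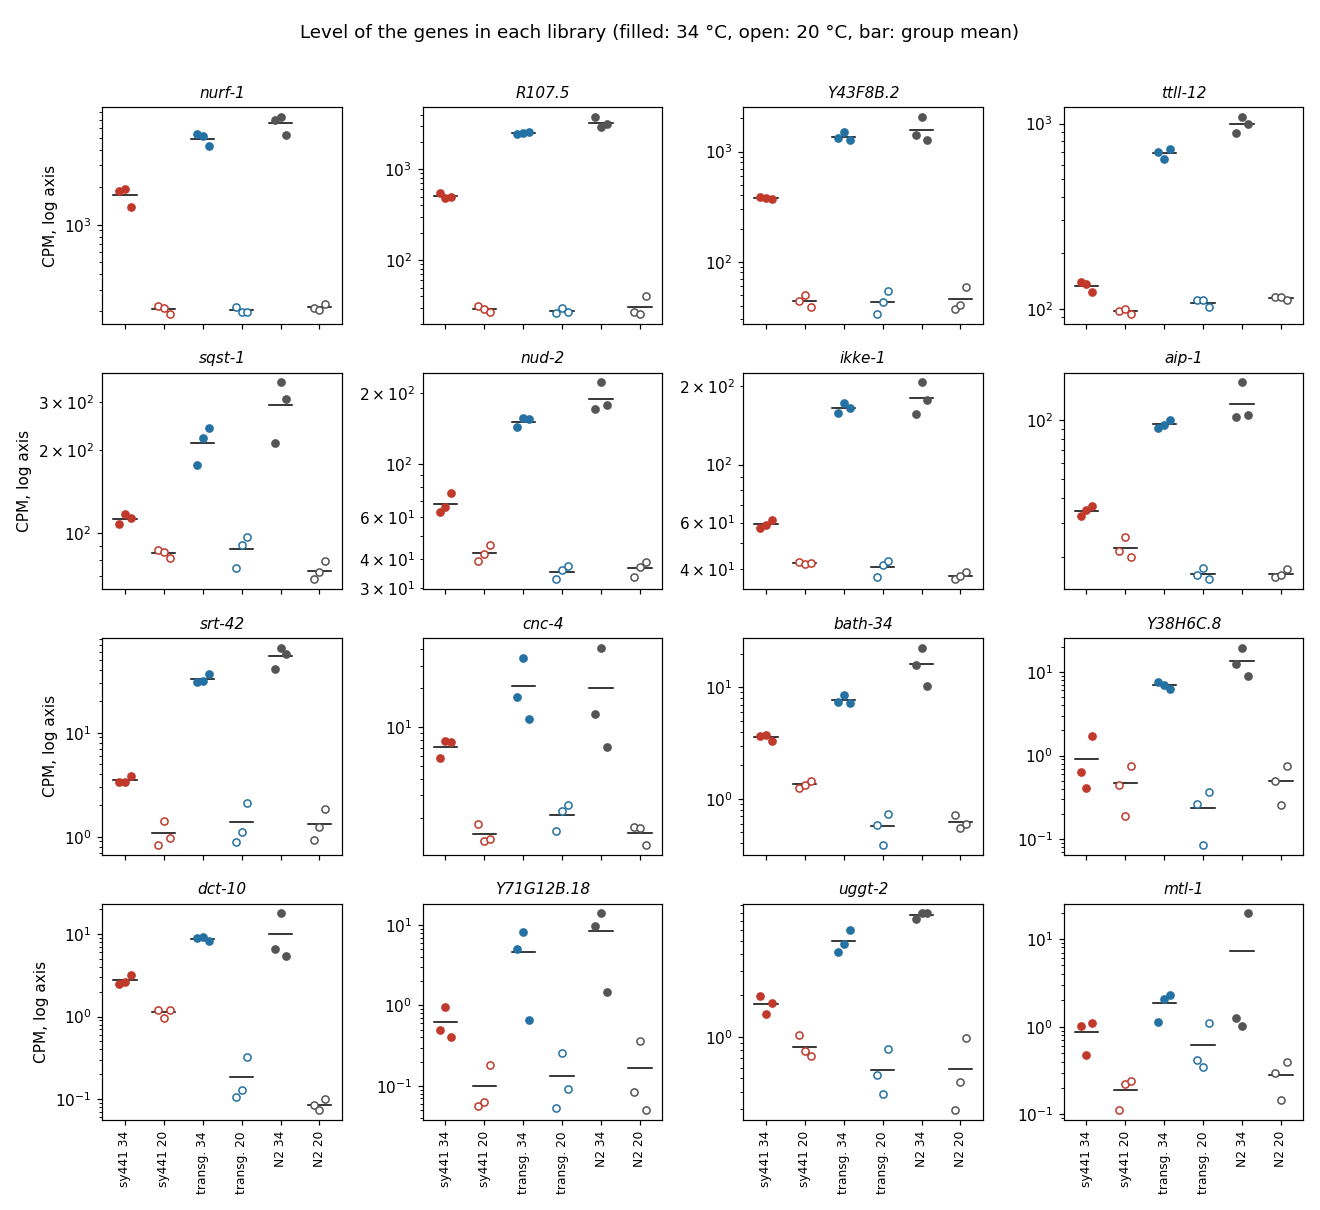
Level of each of the 16 genes in CPM (TMM-scaled, log axis, a separate scale per gene) in the 18 libraries. Each point is 1 library, filled at 34 °C and open at 20 °C, in red for hsf-1(sy441), blue for the transgene strain and grey for N2, and the bar is the group mean. Heated hsf-1(sy441) libraries sit below heated N2 libraries for all genes but cnc-4 and mtl-1, where the ranges touch, as the choice of the genes favours.

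A group of 4 genes has roles in the handling of damaged or unfinished proteins. sqst-1 (T12G3.1, chromosome IV, 12034230 to 12037029) encodes the worm p62, an autophagy receptor that binds ubiquitin-tagged cargo. It had 108, 117 and 114 CPM in heated hsf-1(sy441) larvae, 177, 222 and 241 CPM in the heated transgene strain and 213, 353 and 306 CPM in heated N2. At 20 °C it averaged 84.6 ± 2.79, 87.5 ± 11.3 and 73.0 ± 5.53 CPM in these strains. With a ratio of 3.98 in N2 it was the member with the weakest induction. At 38.8% it had the highest share of the N2 level in heated hsf-1(sy441) larvae, a rank that changed without single N2 libraries. Without replicate 3 of heated N2 this share was 76.5% for mtl-1 and 39.8% for sqst-1. Without replicate 2 it was 72.0% for cnc-4, 45.8% for dct-10 and 43.5% for sqst-1.

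aip-1 (F58E10.4, chromosome V, 14012318 to 14013629) encodes an AN1 zinc finger protein induced by arsenite, which associates with the proteasome. Its level was 32.5, 34.7 and 36.3 CPM in heated hsf-1(sy441), 90.4, 94.1 and 100.2 CPM in the heated transgene strain and 103, 155 and 106 CPM in heated N2, so the 3 strains did not overlap. bath-34 (W02A11.5, chromosome I, 12749880 to 12752057) encodes a protein with BTB and MATH domains, a family that includes adaptors of cullin ubiquitin ligases. It had 3.65, 3.76 and 3.30 CPM in heated hsf-1(sy441), 7.45, 8.51 and 7.24 CPM in the heated transgene strain and 15.9, 22.6 and 10.2 CPM in heated N2. Its heated transgene libraries averaged 47.6% of the N2 mean, the second lowest share in the set. uggt-2 (F26H9.8, chromosome I, 9317728 to 9327204) encodes a homolog of the glucosyltransferase that tags unfolded glycoproteins in the endoplasmic reticulum. Its mean was 1.74 ± 0.251 CPM in heated hsf-1(sy441), 4.96 ± 0.953 CPM in the heated transgene strain and 7.65 ± 0.406 CPM in heated N2. It lies in the same locus as hsp-70, on the opposite strand, and whether counting used the strand is not given in the sources used here, so that reads of these genes cannot be told apart with certainty.

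Genes of microtubules and nuclear movement formed a pair. ttll-12 (D2013.9, chromosome II, 9338899 to 9346531, 1 of 2 genes in its locus) encodes a member of the tubulin tyrosine ligase-like family. Its level was 139, 136 and 124 CPM in heated hsf-1(sy441), 703, 647 and 729.7 CPM in the heated transgene strain and 891, 1085 and 997 CPM in heated N2. These ranges did not overlap between strains, and the ratio to 20 °C was 1.37 in hsf-1(sy441), 6.42 in the transgene strain and 8.67 in N2. nud-2 (R11A5.2, chromosome I, 7853743 to 7859412, 1 of 2 genes in its locus) encodes the NudE homolog, a cofactor of dynein in nuclear migration. It had 62.7, 65.7 and 75.8 CPM in heated hsf-1(sy441), 143, 156 and 155 CPM in the heated transgene strain and 171, 221 and 177 CPM in heated N2.

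A kinase and a receptor gene represent signalling. ikke-1 (R107.4, chromosome III, 9045933 to 9050617) encodes a kinase of the IKK-epsilon type. It averaged 59.1 ± 2.35 CPM in heated hsf-1(sy441), 165 ± 7.89 CPM in the heated transgene strain and 179.7 ± 25.4 CPM in heated N2, where the transgene strain and N2 overlapped. srt-42 (Y46H3A.1, chromosome V, 1799725 to 1809467) is named as a serpentine receptor of class T. It had 3.35, 3.39 and 3.80 CPM in heated hsf-1(sy441), 30.6, 31.7 and 37.0 CPM in the heated transgene strain and 40.8, 65.4 and 56.6 CPM in heated N2. Its share of the N2 level in heated hsf-1(sy441) larvae, 6.47%, was the lowest of the 16, though Y38H6C.8, at 6.76%, had 3.87% without replicate 3 of heated hsf-1(sy441). The gene lies in a locus of 4 genes with hsp-16.41 and hsp-16.2, whose heated N2 means were 3089.8 and 3212 CPM, and how the deposited counts divide fragments within that locus was not tested.

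For 2 genes of defence and metal binding the level depended on single libraries. cnc-4 (R09B5.9, chromosome V, 1447222 to 1447707) belongs to the caenacins, a family of antimicrobial peptides. It had 5.76, 7.84 and 7.69 CPM in heated hsf-1(sy441), 17.1, 34.3 and 11.6 CPM in the heated transgene strain and 12.7, 41.1 and 7.02 CPM in heated N2, so that 1 of the heated N2 libraries lay within the hsf-1(sy441) range. Its relatives cnc-3 and cnc-2 on chromosome V had heat ratios of 1.23 and 3.32 in hsf-1(sy441), 0.990 and 2.44 in the transgene strain, and 1.01 and 3.00 in N2. cnc-11, another relative, had heat ratios of 1.85 in hsf-1(sy441), 2.66 in the transgene strain and 55.1 in N2. Its heated N2 libraries had 0.349, 0.563 and 11.2 CPM, so the ratio of 55.1 rests on replicate 3, whereas cnc-4 was highest in replicate 2. mtl-1 (K11G9.6, chromosome V, 6691352 to 6691846) encodes a metallothionein, a small protein that binds metals. Its level was 1.03, 0.479 and 1.10 CPM in heated hsf-1(sy441), 1.13, 2.09 and 2.32 CPM in the heated transgene strain, and 1.25, 1.02 and 19.6 CPM in heated N2. The value of 19.6 CPM came from replicate 3, the library with the high sum of yolk genes, and the other N2 libraries lay within the range of heated hsf-1(sy441) or close to it. Without that library mtl-1 no longer met the rule, and the part of the yolk signal in its level was not tested. The second metallothionein gene, mtl-2, averaged 16.5 CPM at 34 °C and 25.3 CPM at 20 °C in hsf-1(sy441), 17.7 and 23.4 CPM in the transgene strain, and 25.8 and 26.3 CPM in N2.

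The other members were scarce transcripts. dct-10 (Y38H6C.5, chromosome V, 20506472 to 20509976), the pseudogene, had 2.46, 2.63 and 3.16 CPM in heated hsf-1(sy441), 8.96, 9.13 and 8.26 CPM in the heated transgene strain and 6.55, 17.8 and 5.48 CPM in heated N2. Its heat ratio of 117 in N2, the largest of the set, rests on 2 fragments in each N2 library at 20 °C, and it was 70.7 without replicate 2 of heated N2. Y38H6C.8 (chromosome V, 20514735 to 20515675) had 0.641, 0.411 and 1.70 CPM in heated hsf-1(sy441), 7.54, 6.95 and 6.16 CPM in the heated transgene strain and 12.4, 19.3 and 8.96 CPM in heated N2. No function is annotated for it in the files, nor for Y71G12B.18 (chromosome I, 1652916 to 1655443). Y71G12B.18 had 0.493, 0.958 and 0.400 CPM in heated hsf-1(sy441), 5.04, 8.29 and 0.652 CPM in the heated transgene strain and 9.69, 14.0 and 1.47 CPM in heated N2. Its replicate 3 was far below its fellow replicates in the heated transgene strain and heated N2, and in the transgene strain that replicate lay within the range of hsf-1(sy441).

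Compared per length, in the FPKM scaled by the authors, the order of the means in heated N2 was nurf-1 (4478), R107.5 (3744), Y43F8B.2 (2697), ttll-12 (457), nud-2 (169), aip-1 (131), sqst-1 (116), cnc-4 (88.5), ikke-1 (62.9), srt-42 (55.9), mtl-1 (38.6), Y38H6C.8 (35.2), bath-34 (13.4), Y71G12B.18 (9.28), dct-10 (3.65) and uggt-2 (1.81). The place of mtl-1 rests on replicate 3 of heated N2, with 293 fragments of it, against 18 and 20 in replicates 1 and 2. In N2 at 20 °C the first 4 were nurf-1 at 70.3, Y43F8B.2 at 69.6, ttll-12 at 49.6 and R107.5 at 33.6 FPKM. In FPKM the levels of nurf-1 and Y43F8B.2 were thus close before heat shock and further apart after it, but in CPM the heat ratio of nurf-1 in N2, 30.3, was below that of Y43F8B.2, 34.5.

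The limits of the rule were close for few members, in CPM on plain library totals. By level, mtl-1 at 5.88 and uggt-2 at 6.09 CPM were just inside, and C47E8.11 at 4.77 and Y17D7C.2 at 4.75 CPM just outside. The level of mtl-1 rests on replicate 3 of heated N2, without which it left the set. By N2 heat ratio, sqst-1 at 3.26 and ikke-1 at 3.92 were just inside, and cls-2 at 2.39 and ZK1010.8 at 2.22 just outside. By the share in heated hsf-1(sy441), sqst-1 at 0.428 and nud-2 at 0.398 of N2 were inside, and Y56A3A.33 at 0.556 and rmd-1 at 0.570 outside. By the ratio of the transgene strain to hsf-1(sy441), sqst-1 at 1.81 and mtl-1 at 2.01 were inside, and hsp-16.21 at 1.48 and vit-2 at 1.11 outside.

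The levels in the mutant itself differed between the temperatures. In hsf-1(sy441), the libraries at 34 °C lay above all those at 20 °C for 15 of 16 genes, against 26.2% of all 14219 genes tested, and the exception was Y38H6C.8. The edgeR quasi-likelihood test called 12 of the 16 higher at 34 °C at an adjusted p below 0.05, against 15.8% of all genes. The rule used the heated hsf-1(sy441) libraries only as an upper limit, but since the members were chosen on those libraries nothing further is read from these counts. The ratio of means in hsf-1(sy441) ran from 1.33 for sqst-1 to 17.4 for R107.5. These ratios did not follow the order of the N2 ratios. nurf-1, R107.5 and Y43F8B.2 had ratios of 8.29 to 17.4 in hsf-1(sy441). srt-42, cnc-4, bath-34, dct-10, Y71G12B.18, uggt-2, mtl-1 and Y38H6C.8 had ratios of 1.97 to 6.15, of which the lowest, for Y38H6C.8, was 1.13 without replicate 3 at 34 °C and the highest, for Y71G12B.18, was 10.4 without replicate 3 at 20 °C. ttll-12, sqst-1, nud-2, ikke-1 and aip-1, which had 16.4 to 114 CPM at 20 °C, had ratios of 1.33 to 1.62.

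In the transgene strain, all 16 genes had every heated library above every library at 20 °C, against 21.2% of all genes, and edgeR called 15 of them higher, against 16.0%. The rule set a lower limit on the heated transgene libraries, so nothing further is read from these counts. The ratio ran from 2.43 for sqst-1 to 90.5 for R107.5. As a median over the 16 genes, the log2 fold of heat shock was 1.35 in hsf-1(sy441), 3.53 in the transgene strain and 4.71 in N2, where the medians of all genes tested were 0.05, 0.02 and 0.02. Libraries that enter these medians also chose the genes, so the medians were not tested.

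The heated transgene strain reached different shares of the N2 level from gene to gene, a measure that the rule limited from below. Relative to N2 at 34 °C, the transgene strain had 104% of the level of cnc-4, 91.7% of ikke-1, 88.2% of dct-10 and 86.2% of Y43F8B.2. At the low end it had 25.3% of mtl-1, 47.6% of bath-34, 50.7% of Y38H6C.8 and 55.5% of Y71G12B.18. Single libraries carried 4 of these shares. For mtl-1 the share was 162% without replicate 3 of heated N2, the library with the high sum of yolk genes, so that its place at the low end rests on that library. Without replicate 2 of heated N2 the share was 213% for cnc-4 and 146% for dct-10, and without replicate 2 of the heated transgene strain it was 33.9% for Y71G12B.18. For 8 of 16 genes every heated transgene library was below every heated N2 library, against 7.50% of all genes tested. They were R107.5, ttll-12, nud-2, aip-1, srt-42, bath-34, Y38H6C.8 and uggt-2. By edgeR 2 of the 16 were called lower in the transgene strain, against 1.09%, and the N2 libraries behind both counts were those that chose the genes. The median log2 ratio of the transgene strain to N2 was -0.43 over the 16 genes and -0.01 over all genes.

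**Figure D2:**
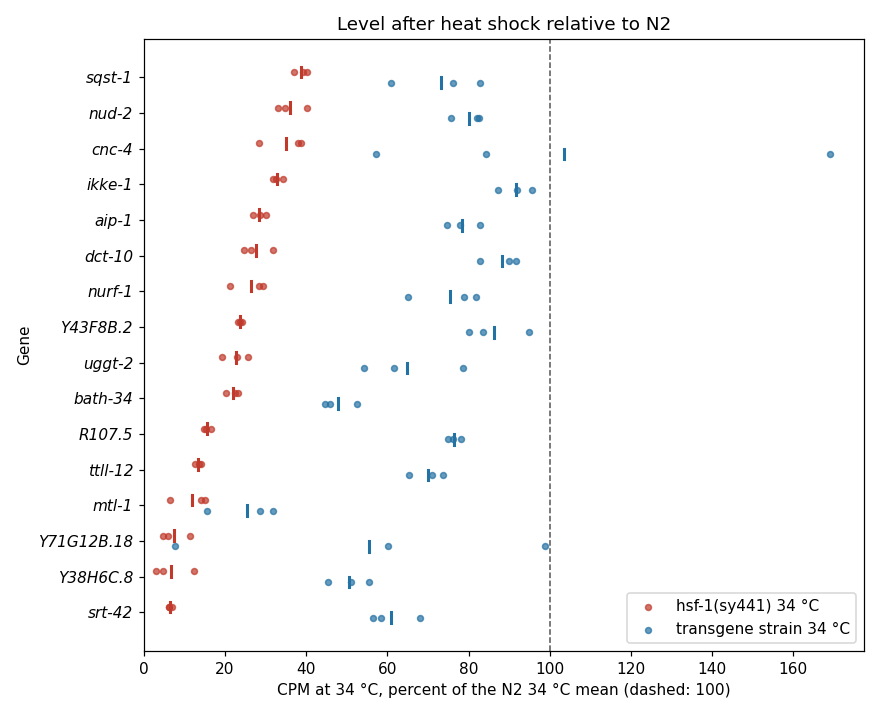
Level at 34 °C of each gene (rows, ordered by the hsf-1(sy441) mean) in hsf-1(sy441) (red) and the transgene strain (blue), in percent of the mean of the 3 heated N2 libraries. Points are libraries and ticks are means, and the dashed line marks 100. The hsf-1(sy441) means run from 6.47% for srt-42 to 38.8% for sqst-1, and the transgene means from 25.3% for mtl-1 to 104% for cnc-4. Both transgene ends rest on 1 heated N2 library (162% for mtl-1 without replicate 3, 213% for cnc-4 without replicate 2). Without the same libraries the hsf-1(sy441) shares were 76.5% for mtl-1 and 72.0% for cnc-4, above that of sqst-1.

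The libraries at 20 °C of hsf-1(sy441) and of the transgene strain took no part in the choice of the genes, so this contrast gave the test that is independent of the rule. It asks whether the genes differ before heat shock between larvae with the mutated HSF-1 alone and larvae that also carry the transgene. Of the 16 genes, 2 were called higher in hsf-1(sy441) and 0 lower, by the edgeR quasi-likelihood test with Benjamini-Hochberg adjustment over all 14219 genes. Over all genes, 2.55% were called higher, 2.08% lower and 4.63% in either direction. At an unadjusted p below 0.05, 4 of the 16 were higher and 0 lower, against 9.14% and 12.1% of all genes. DESeq2 and limma each called 3 higher and 0 lower, against 5.26% and 5.46% of all genes in DESeq2 and 2.17% and 0.802% in limma. Y71G12B.18 and mtl-1 did not pass the filter on low counts when it was applied to these 2 groups alone, and they entered the test through the other groups. Of the markers of tissues, 1 of 16 neuronal genes was called higher in hsf-1(sy441) at 20 °C, and 0 of 8 muscle, 10 intestinal, 8 hypodermal and 12 germline genes were called in either direction. At 34 °C 7 of the 16 neuronal genes were called higher in hsf-1(sy441), against 5.24% of all genes. Their summed levels were 1209 to 1358 CPM in hsf-1(sy441) and 1053 to 1220.1 CPM in the transgene strain. Of the other tissue markers at 34 °C, 1 of 10 intestinal genes was called lower and 1 of 12 germline genes higher. None of the 8 muscle and 8 hypodermal genes was called. The part of these markers in the results was not tested.

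The 2 genes were dct-10 and bath-34. dct-10 had 1.20, 0.949 and 1.21 CPM in hsf-1(sy441), against 0.105, 0.129 and 0.320 CPM in the transgene strain, without overlap. These levels stand on 43, 30 and 40 fragments in hsf-1(sy441) and on 2, 3 and 7 fragments in the transgene strain. The log2 fold change was 2.55 (SE 0.49, edgeR adjusted p = 7.1e-03), and adjusted p-values over the alternatives ran from 0.00021 to 0.05. The call was lost without replicate 2 of the transgene strain, where the adjusted p was 0.05 after rounding.

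bath-34 had 1.25, 1.33 and 1.46 CPM in hsf-1(sy441), against 0.580, 0.386 and 0.732 CPM in the transgene strain, again without overlap. The log2 fold change was 1.25 (SE 0.28, edgeR adjusted p = 0.018), with adjusted p-values from 0.0037 to 0.11 over the alternatives. This call was lost without replicate 3 of hsf-1(sy441) (adjusted p = 0.062), without replicate 1 of the transgene strain (0.064) or without its replicate 2 (0.11). N2 larvae at 20 °C, whose libraries served in the rule, had 0.0728 to 0.0989 CPM of dct-10 and 0.546 to 0.711 CPM of bath-34. For both genes the hsf-1(sy441) libraries were thus above all 6 libraries of the other strains before heat shock, and below them all after it. Without replicate 3 of the transgene strain at 20 °C, the library with the high hsp-16.41 level, the adjusted p was 0.0086 for dct-10 and 0.019 for bath-34.

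aip-1 came close to the threshold. It had 21.6, 25.4 and 20.0 CPM in hsf-1(sy441), against 16.2, 17.7 and 15.4 CPM in the transgene strain. The groups did not overlap, and the log2 fold change of 0.44 (SE 0.14) had an edgeR adjusted p of 0.083. It was called by DESeq2 and limma, by the fit with a replicate block and under the scalings by library totals or upper quartile. For nud-2, also without overlap, the log2 fold change was 0.25 (SE 0.10, adjusted p = 0.18).

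The other 12 genes had adjusted p-values of 0.27 to 0.95 in this contrast. The interval of the difference was narrow for the abundant ones, with log2 fold changes of 0.03 (SE 0.14) for nurf-1, 0.08 (SE 0.14) for R107.5, 0.06 (SE 0.09) for ikke-1, -0.05 (SE 0.16) for sqst-1 and -0.15 (SE 0.08) for ttll-12. It was wide for the scarce ones, with a SE of 1.12 for mtl-1 and 1.45 for Y71G12B.18. Without replicate 3 of the transgene strain the log2 fold change was 0.12 for srt-42, against -0.36 with it, and -0.94 for mtl-1, against -1.68 with it. The groups did not overlap for 4 genes that were higher, against 15.6% of all genes, and for 2 genes that were lower, ttll-12 and mtl-1, against 17.9%. The median log2 fold change was 0.04 over the 16 genes and 0.00 over all genes. In the authors' deposited table the ratio of hsf-1(sy441) to the transgene strain at 20 °C was 2.64 on the log2 scale for dct-10 (q = 0.00146) and 1.29 for bath-34 (q = 0.0105). The authors' deposited table also gave -1.63 for mtl-1 (q = 0.0436) and marked uggt-2 and Y71G12B.18 as not tested.

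**Figure D3:**
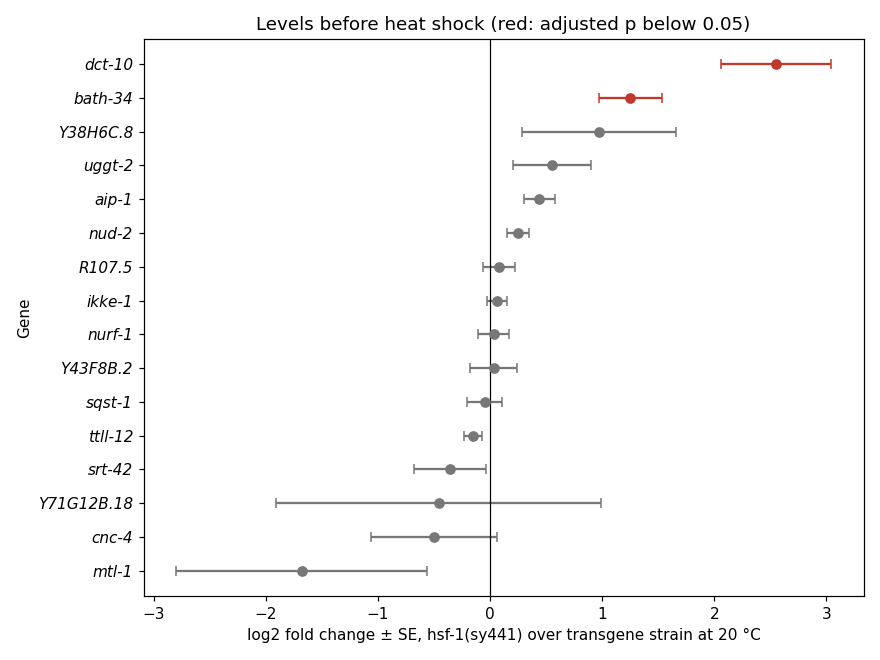
Difference between hsf-1(sy441) and the transgene strain at 20 °C for each of the 16 genes, as the log2 fold change with its standard error from the edgeR fit, n = 3 libraries per group. Red points, dct-10 at 2.55 and bath-34 at 1.25, have an adjusted p below 0.05, and the other 14 do not.

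Set against N2 at 20 °C, whose libraries the rule used, hsf-1(sy441) was called higher by edgeR for 3 of the 16 genes and lower for 1, against 9.42% and 11.5% of all genes. The transgene strain was called different from N2 at 20 °C for 0 of the 16, against 0.949% of all genes higher, 0.380% lower and 1.33% in either direction, and 0 passed an unadjusted p of 0.05 in edgeR or in limma. Nothing further is read from these comparisons.

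The pathways that these genes border on were counted in the same strain contrasts, without the 16 genes. Of 17 cytosolic chaperone and co-chaperone genes, 0 were called higher and 10 lower in hsf-1(sy441) than in the transgene strain at 34 °C, against 5.24% and 3.90% of all genes. The list includes hsp-90, hsp-110, dnj-13 and unc-23, which the rule left out by name. All of these but hsp-90 met its limits, which used these heated libraries. The count at 34 °C is therefore a description. Before heat shock, 0 of the 17 were higher and 4 lower in hsf-1(sy441), against 2.55% and 2.08% of all genes. These 4, named after their values were seen, were hsp-90 (1681 ± 11.5 against 2645 ± 38.7 CPM, log2 fold change -0.65, adjusted p = 2.5e-05), fkb-6 (-0.60, 0.0013), sti-1 (-0.62, 0.02) and ahsa-1 (-0.33, 0.025), which encode Hsp90 and proteins that work with it. The count of 4 was between 2 and 6 over the alternatives, and it was 2 without replicate 1, 2 or 3 of hsf-1(sy441) and without replicate 1 or 3 of the transgene strain. Of 4 inducible heat shock protein genes tested, 1 was called higher in hsf-1(sy441) at 20 °C and 0 lower, against the same 2.55% and 2.08%. It was hsp-70, also left out by name, with 2.34, 1.68 and 2.37 CPM in hsf-1(sy441) against 0.685, 0.686 and 1.28 CPM in the transgene strain (log2 fold change 1.26, adjusted p = 0.0091).

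For the lists that hold members, the rest of the list gave the following counts at 34 °C. Over all genes, 5.24% were called higher and 3.90% lower in hsf-1(sy441) than in the transgene strain. Of 270 genes of ubiquitin and the proteasome, the list of sqst-1, aip-1 and bath-34, 10 were called higher and 11 lower. Of 25 autophagy genes, 0 were called higher and 2 lower. Of 192 genes of the oxidative and xenobiotic response, the list of mtl-1, 10 were higher and 7 lower, and of 166 innate immunity genes, the list of cnc-4, 10 were higher and 8 lower. The median log2 fold changes were -0.06 in the ubiquitin list, -0.11 in the autophagy list, -0.05 in the oxidative list and 0.04 in the immunity list, and 0.03 over all genes. Without single libraries of these groups the counts ran from 5 to 14 higher and 8 to 15 lower in the ubiquitin list, from 4 to 15 and 3 to 12 in the oxidative list, and from 4 to 12 and 2 to 11 in the immunity list. The 2 autophagy calls were lost without replicate 1, 2 or 3 of heated hsf-1(sy441), without replicate 1 or 2 of the heated transgene strain, with limma, and without scaling factors or with the upper quartile. At 20 °C the counts were 11 higher and 6 lower in the ubiquitin list, 0 and 0 in the autophagy list, 8 and 7 in the oxidative list, and 9 and 3 in the immunity list, against 2.55% and 2.08% of all genes. Without single libraries of these groups the counts ran from 3 to 10 higher and 0 to 1 lower in the ubiquitin list, from 3 to 8 and 3 to 6 in the oxidative list, and from 4 to 8 and 0 to 2 in the immunity list, and with a replicate block they were 26 and 39, 35 and 31, and 27 and 24. In the ubiquitin list more genes were higher than lower except with the block.

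The rule did not use position, and several of the genes lie beside each other or beside one of the genes that were left out by name. Of the 16 genes, 8 lay within 5 kb of another member or of a left-out gene, against 74 of 14192 other genes tested (0.521%). The window was chosen after the positions were seen, and since neighbours were selected on the same libraries the shares are a description. With a left-out gene as the neighbour there were 4. The locus of ttll-12, shared with F42A8.1, lies 60 bases from that of scp-1, and ttll-12 is downstream of scp-1 on the same strand. The locus of nud-2, shared with apb-3, lies 3424 bases from that of R11A5.3, and nud-2 is downstream of R11A5.3 on the same strand. srt-42 is downstream of hsp-16.41 on the same strand in a shared locus, and uggt-2 shares the hsp-70 locus on the opposite strand. Distances are between loci, and directions are those of the WBcel235 annotation.

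In each of these pairs the neighbour had the larger heat ratio. The ratio was 1.37 for ttll-12 and 1.66 for scp-1 in hsf-1(sy441), 6.42 and 16.4 in the transgene strain, and 8.67 and 24.9 in N2. For nud-2 and R11A5.3 it was 1.62 and 64.3 in hsf-1(sy441), 4.29 and 543 in the transgene strain, and 5.21 and 1204 in N2. For srt-42 and hsp-16.41 it was 3.26 and 124 in hsf-1(sy441), 24.1 and 141 in the transgene strain, and 40.8 and 5560.2 in N2, where the ratio of 141 rests on the transgene library at 20 °C with 49.5 CPM and was 7738 without it, and that of 5560.2 was 10677 without replicate 3 of N2 at 20 °C. Replicate 3 of the transgene strain at 20 °C, the library with 49.5 CPM, also had the highest srt-42 level of its group, 2.10 CPM against 0.896 and 1.11 CPM. For uggt-2 and hsp-70 the ratio was 2.04 and 30.4 in hsf-1(sy441), 8.57 and 762 in the transgene strain, and 13.1 and 2716 in N2, where that of uggt-2 was 20.0 without replicate 3 at 20 °C. The partner of nud-2 in its own locus, apb-3, had ratios of 0.910, 0.865 and 0.960 in these strains.

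Of the pairs within the set, ikke-1 lies 896 bases downstream of R107.5 on the same strand. In hsf-1(sy441) the heat ratio of ikke-1 was 1.41 and that of R107.5 was 17.4. The genes on either side of this pair, named after their values were seen, were R107.2, with ratios of 1.39 in hsf-1(sy441), 2.17 in the transgene strain and 1.99 in N2, and cls-2, a microtubule-binding CLASP gene, with 0.951, 2.50 and 2.91. cls-2 had 76.2, 88.0 and 74.5 CPM in heated hsf-1(sy441), 193, 214 and 219 CPM in the heated transgene strain, and 209.8, 295 and 245 CPM in heated N2. It missed the rule on its N2 ratio alone. Y38H6C.8 and dct-10 lie 4758 bases apart.

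**Figure D4:**
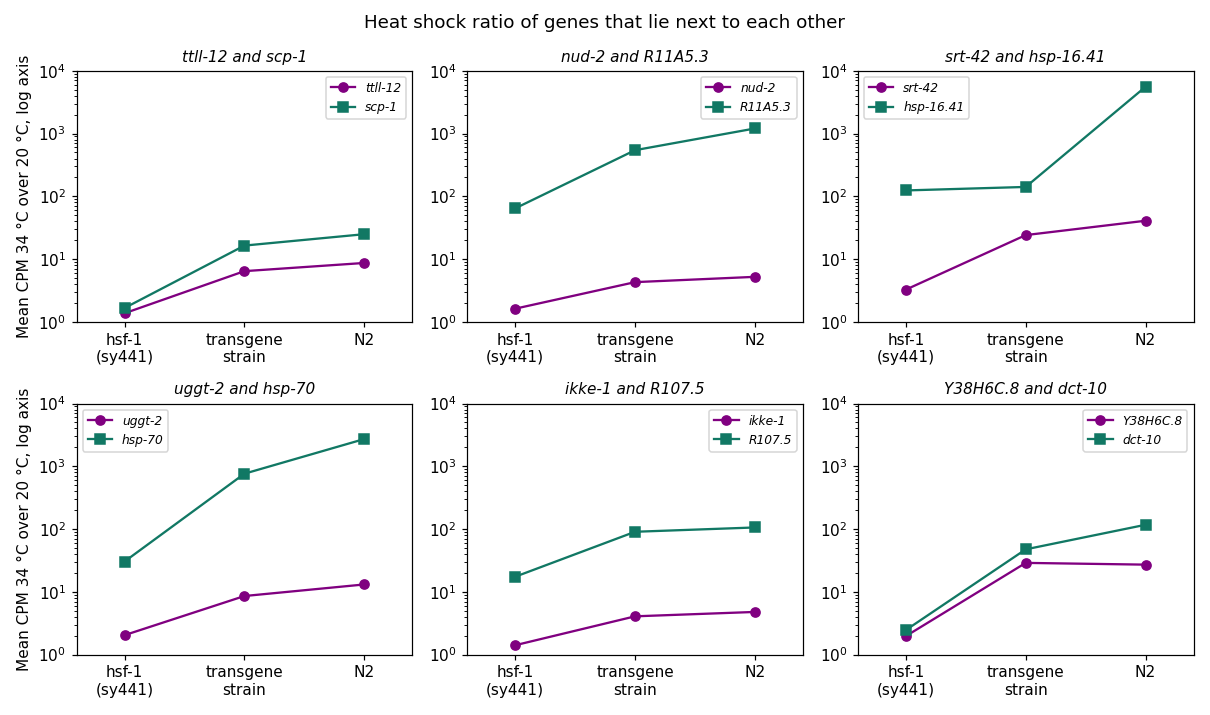
Ratio of the mean CPM at 34 °C to that at 20 °C (log axis) in hsf-1(sy441), the transgene strain and N2 for 6 pairs of neighbouring genes, n = 3 libraries per mean. Circles are members, and squares are the neighbour, which is a left-out gene in the first 4 panels and a member in the last 2. The neighbour drawn with squares has the higher ratio in every panel and strain, as for nud-2 (5.21) and R11A5.3 (1204) in N2.

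For nurf-1 the 2 deposited scales gave different sizes of the heat response. FPKM divides fragments by the length of the transcripts to which they were assigned, while CPM ignores length. In FPKM the heat ratio of nurf-1 was 17.6 in hsf-1(sy441), 52.6 in the transgene strain and 63.7 in N2, which is 2.12, 2.18 and 2.11 times its ratio in CPM. Among 8439 genes with at least 5 CPM in every group, the quotient of the FPKM and CPM ratios had medians of 1.02, 1.04 and 1.06 in these strains, and 95% of genes lay between 0.982 and 1.06, between 1.00 and 1.08, and between 1.02 and 1.11. In hsf-1(sy441) 1 of those genes, nurf-1 itself, reached its quotient, and in the transgene strain and N2 there were 3 and 6, nurf-1 included. For the other 15 members the quotient ran from 0.934 to 1.12. The gene-level file does not hold the transcripts of nurf-1, so their shares were not analysed here.

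**Figure D5:**
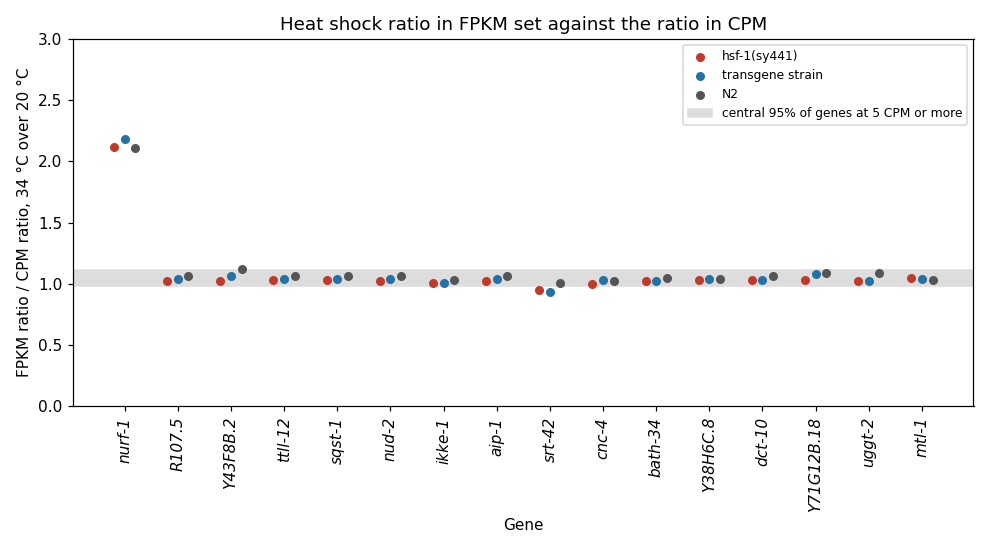
Quotient of the heat shock ratio in FPKM and that in CPM for each of the 16 genes, with a point each for hsf-1(sy441) (red), the transgene strain (blue) and N2 (grey). The grey band holds the central 95% of 8439 genes in each of the 3 strains, 0.982 to 1.11, and nurf-1 lies at 2.11 to 2.18.

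In some of the groups the 16 genes often shared their highest library. In heated N2, replicate 2 had the highest level of 13 of the 16 genes, whereas it was the highest for 33.1% of all genes tested, and replicates 1 and 3 were each the lowest for 7. At 20 °C, replicate 3 of the transgene strain was the highest for 11 of the 16 genes (37.3% of all genes), and replicate 3 of N2 for 12 (39.9%). In heated hsf-1(sy441) larvae the highest library was replicate 1 for 4 genes, replicate 2 for 5 and replicate 3 for 7. The spread between replicates of heated N2, as the highest over the lowest library, was 1.10 for uggt-2, 1.22 for ttll-12 and 1.66 for sqst-1, and reached 5.85 for cnc-4, 9.53 for Y71G12B.18 and 19.2 for mtl-1. Without replicate 2 of heated N2 the rule no longer took sqst-1, cnc-4, dct-10 and Y71G12B.18.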

How the data were processed

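Per the submitters' processing notes, reads were processed with TopHat2 and Cuffdiff on genome build ce10. Versions, options and annotation are not given in the sources used here. The authors deposited expected counts (unscaled fragment estimates) and FPKM scaled between libraries, per the file headers. The authors' deposited test table holds log2 ratios of FPKM and q-values. Replicates 0 to 2 of the table were matched in order to replicates 1 to 3 of the labels.

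Names came from RefSeq and matched 19879 of 20389 genes (97.5%). The 114 genes with a failed estimate in any library held 6.11% to 7.75% of fragments and were left out. Counts were rounded. The members were found with CPM on the total of all listed genes. Tests used edgeR 4.0.16 (R 4.3.3), with filterByExpr (14219 genes), TMM factors of 0.85 to 1.24, 1 mean for each of 6 groups in a robust quasi-likelihood fit, and Benjamini-Hochberg adjustment within each comparison, called at 0.05. On counts simulated for hsf-1(sy441) against the transgene strain at 20 °C (14002 genes), the model recovered 14 of 67 genes changed 1.5-fold, 43 of 67 changed 2-fold and 58 of 66 changed 4-fold, with 5 false calls. The changed genes were drawn from those above 1 CPM over all libraries, with that overall mean as the base level. Recovery at lower levels was therefore not covered. Alternatives used DESeq2 1.42.0 and limma 3.58.1 on log2(FPKM + 0.1). No molecular identifiers are named in the labels, and depth therefore bounds counting error alone.

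The members and lists were chosen with earlier results of these data known. Genes were named by level, heat ratio, share of N2, list, shared locus or family, nearness to a limit, and calls at 20 °C; neighbours and relatives outside the set were added after their values were seen. Sequences of promoters were not used here.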

Additional observations from a re-analysis of the deposited data

How the results depend on the processing

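In hsf-1(sy441) against the transgene strain at 20 °C, 659 genes were called. The count was 1169 in a fit of the 2 groups alone, 3050 with a replicate block, 1523 with DESeq2 and 422 with limma, and 328 to 519 without 1 replicate of these groups. Of the 16 genes, 2 were called, 4 of the 14 tested with the replicate block (aip-1 and nud-2 beside dct-10 and bath-34), and 0 to 2 without 1 replicate. The replicate numbers share no stated culture or day. Deviations of same-numbered libraries correlated at 0.27, 0.05 and 0.50 across genes, and those of differently numbered libraries at -0.51 to 0.40. Whether the numbers pair the libraries cannot be told from these values. Without scaling factors the median log2 fold of all genes moved to -0.29, -0.25 and -0.25 for heat shock in the mutant, the transgene strain and N2, and to 0.11 for hsf-1(sy441) against the transgene strain at 20 °C.

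Over the 16 genes, the median log2 fold of heat shock in hsf-1(sy441) became 1.01 without scaling factors, and that in N2 became 3.97 with limma. The median log2 ratio of hsf-1(sy441) to N2 at 34 °C became -1.98 without scaling factors and -1.95 with limma, and ran from -2.17 to -1.86 without 1 replicate. That of the transgene strain to N2 became -0.35 without scaling factors and ran from -0.52 to -0.30 without 1 replicate. The rule found 28 genes in FPKM (14 of the 16 among them), 21 with TMM-scaled CPM, 18 with totals of usable genes, 14 to 20 without 1 replicate, and 14 with group medians, an alternative added after the data were seen, as was the fit without replicate 3 of heated N2, where 804 genes and 2 of the 16 were called. Among genes not called at 20 °C, the log2 fold change of sqst-1 turned to 0.06 without scaling factors, 0.02 with the upper quartile and with limma. Without 1 replicate it ran from -0.15 to 0.07 for sqst-1, from -0.12 to 0.25 for Y43F8B.2, from -1.12 to 0.42 for Y71G12B.18, from -0.58 to 0.12 for srt-42 and from -0.00 to 0.13 for ikke-1. Neither dct-10 nor bath-34 changed sign, and neither did the medians over the 16 genes given in this paragraph. Medians near 0 did change sign in other sets. At 34 °C that of the oxidative list was 0.04 without replicate 3 of the heated transgene strain. That of the immunity list was -0.03 without its replicate 2. The cause of these changes was not tested. The planned count of heat shock elements in promoters was not run. Members under 1 CPM at 20 °C rest on few fragments, which limits what their basal levels can show.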
